A study of Mus musculus with 34 samples.

Results

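Transcripts of 10 Asb genes that are known for expression in striated muscle (Asb2, Asb5, Asb8, Asb10, Asb11, Asb12, Asb14, Asb15, Asb16 and Asb18) were followed in skeletal muscle of mice that lacked receptors for insulin and insulin-like growth factor 1 (IGF-1). The genes were chosen by name and matched by Ensembl identifier. All 10 were found among the 46071 genes of the count table, and all 10 were among the 13646 genes with enough counts to be tested. Of the 8 other Asb genes looked up, 6 could be tested.

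Asb proteins carry ankyrin repeats, which bind a substrate, and a SOCS box at the C-terminus, which binds elongins B and C and the scaffold cullin 5. The assembled complex is an E3 ubiquitin ligase, and the Asb protein is the adaptor that decides what is ubiquitinated. In muscle, ubiquitin ligases control the turnover of structural and signalling proteins. The best known atrophy ligases are induced by FoxO transcription factors, which insulin and IGF-1 signalling keep out of the nucleus.

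RNA came from powdered quadriceps mixed with gastrocnemius of male mice, with 1 library per mouse and 34 libraries in all. The muscle-specific deletions named by the labels were of the insulin receptor (MIRKO, n = 4), the IGF-1 receptor (MIGF1RKO, n = 5), the 2 receptors together (MIGIRKO, n = 6), and the 2 receptors with FoxO1, FoxO3 and FoxO4 (QKO, n = 7). The controls were floxed littermates, named IRlox (n = 3) for MIRKO, IGFRlox (n = 4) for MIGF1RKO, IRIGFRlox (n = 3) for MIGIRKO and Qlox (n = 2) for QKO. Each of the 4 lines was a separate colony on a mixed C57Blk6, C57Blk6J and 129 background. In MIRKO, MIGIRKO and QKO the Cre recombinase was driven by Acta1, the skeletal actin gene, so cells other than muscle fibers kept the floxed genes intact; the driver in MIGF1RKO is not named in the labels. Mutations of Nnt, a mitochondrial transhydrogenase, ran in the background: MIGIRKO and IRIGFRlox were reported as heterozygous, and MIRKO, IRlox, QKO and Qlox as mixed. Age is not given in the labels.

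Total counts ran from 1499025 to 7581198 per library. Insr counts were lower in all MIRKO, MIGIRKO and QKO libraries than in their floxed controls, at 27.8 to 69.8 CPM (counts scaled to a common library size) against 141 to 191 CPM. Igf1r was not lower in MIGIRKO, with 15.1 to 25.7 CPM against 16.5 to 20.3 CPM in IRIGFRlox, so the loss of that receptor is not visible there in whole-gene counts. In MIGF1RKO it had 7.57 to 11.2 CPM, against 13.5 to 20.4 CPM in IGFRlox. In QKO, Igf1r had 4.01 to 11.9 CPM, against 16.7 to 18.6 CPM in Qlox, and every QKO library was below every MIGIRKO library. Foxo1 and Foxo4 were lower in every QKO library than in both Qlox libraries. Foxo3 was not lower, with 93.1 to 136 CPM in QKO against 79.7 to 103 CPM in Qlox. The loss of Foxo3 is thus not visible in whole-gene counts. A pair of libraries stood apart from their labels in an earlier analysis of these data: the library labelled MIRKO 4 resembled MIGIRKO libraries, and the library labelled MIGIRKO 6 resembled MIRKO libraries. Both are kept below, and results that rest on them are also given without them.

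In the 12 floxed libraries the transcripts spanned a wide range of levels when scaled to length. Asb2, whose protein targets desmin in muscle, had the highest median, 216 CPM per kilobase of exon (range 129 to 366). Asb5, known from rabbit as a gene of growing arteries, followed at 155 (125 to 280). These neighbours were not separated, since Asb2 was above Asb5 in 7 of 12 libraries.

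Asb16 (73.4), Asb11 (64.0), Asb10 (60.3), Asb8 (52.5), Asb14 (46.0) and Asb15 (39.2 CPM per kilobase) formed a middle band. Asb11 encodes an adaptor of the endoplasmic reticulum that is linked to regenerating muscle in zebrafish, and Asb15 is known from cultured muscle cells as a regulator of growth and differentiation. Within the band, each gene was above the next in 6 to 10 of 12 libraries, so the order of neighbours did not exceed the spread. Asb5 was above Asb16 in 12 of 12 libraries, which set the top pair off from the band. Asb18 (13.8) and Asb12 (4.72) came last, and each was below the gene before it in 12 of 12 libraries.

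**Figure D1:**
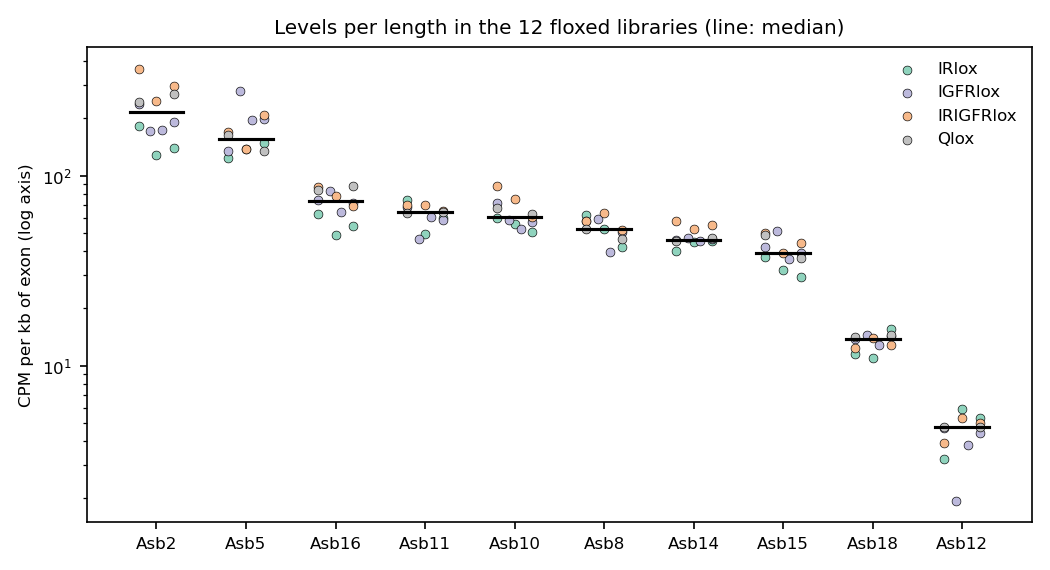
Levels of the 10 transcripts in the 12 floxed libraries, in CPM per kilobase of exon on a log axis; each point is a library, coloured by colony, and the line is the median. Asb2 and Asb5 lie at the top with medians of 216 and 155, and Asb12 lies at the bottom with 4.72.

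None of the 10 transcripts was called as different between the 4 floxed groups (edgeR's quasi-likelihood test over the 4 groups, Benjamini-Hochberg adjustment). That does not show equal levels. Over all tested genes, 0.264% were called in that test, and at an unadjusted p under 0.05 there were 2 of these transcripts, Asb2 and Asb16. The lowest adjusted p in that test was 0.21, for Asb2. Its CPM was 1296, 880 and 1049 in IRIGFRlox, 864 and 955 in Qlox, 610 to 845 in IGFRlox and 456 to 650 in IRlox. Every IRIGFRlox library was thus above every IGFRlox and IRlox library. For Asb16 every IRlox library, at 139 to 178 CPM, was below every other floxed library. With a fit to the floxed libraries alone 1 of the 10 was called, and the share of all tested genes in that fit is not given here.

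Upstream sequences are shown for 5 of the genes: Asb10, Asb14 and Asb18, whose transcripts moved most closely together; Asb15, whose uncalled change in MIGF1RKO had the opposite sign to theirs; and Asb16, for its match to a FoxO motif, which Asb18 shares. Each run is the 250 bases before the RefSeq start in GRCm38.p6, on the strand of the gene. Capitals mark matches, on either strand, to GTAAACA (the FoxO core), CAGCTG (an E-box bound by myogenic factors), the MEF2 site, CATTCC (the MCAT element) or TATAAA.
Asb10, chr5:24540979-24541228, minus strand: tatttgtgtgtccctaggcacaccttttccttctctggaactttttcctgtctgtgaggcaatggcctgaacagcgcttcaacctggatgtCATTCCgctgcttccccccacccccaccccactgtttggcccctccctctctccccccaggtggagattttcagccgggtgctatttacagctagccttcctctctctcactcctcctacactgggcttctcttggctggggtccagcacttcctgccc
Asb14, chr14:26894364-26894613, plus strand: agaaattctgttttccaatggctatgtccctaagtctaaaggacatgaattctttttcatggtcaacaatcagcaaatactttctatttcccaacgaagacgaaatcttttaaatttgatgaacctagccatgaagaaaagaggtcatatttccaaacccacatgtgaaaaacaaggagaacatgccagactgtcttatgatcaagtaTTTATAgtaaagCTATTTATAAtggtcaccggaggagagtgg
Asb18, chr1:90014667-90014916, minus strand: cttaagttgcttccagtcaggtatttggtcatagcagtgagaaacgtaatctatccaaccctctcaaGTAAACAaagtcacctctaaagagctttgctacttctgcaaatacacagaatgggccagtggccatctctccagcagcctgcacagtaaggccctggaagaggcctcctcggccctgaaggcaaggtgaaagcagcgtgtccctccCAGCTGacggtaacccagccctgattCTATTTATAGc
Asb15, chr6:24527894-24528143, plus strand: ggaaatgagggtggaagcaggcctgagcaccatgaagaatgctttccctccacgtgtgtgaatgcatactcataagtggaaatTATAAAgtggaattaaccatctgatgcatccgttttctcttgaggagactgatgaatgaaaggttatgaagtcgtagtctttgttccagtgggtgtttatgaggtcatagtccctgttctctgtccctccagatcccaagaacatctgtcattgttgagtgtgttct
Asb16, chr11:102268501-102268750, plus strand: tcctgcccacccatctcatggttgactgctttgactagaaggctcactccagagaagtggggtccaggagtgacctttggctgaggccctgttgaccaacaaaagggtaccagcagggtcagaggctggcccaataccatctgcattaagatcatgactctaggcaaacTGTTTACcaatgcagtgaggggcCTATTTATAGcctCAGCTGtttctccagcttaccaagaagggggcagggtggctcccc

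The motifs were searched over all RefSeq windows, which run from 250 bases before to 50 bases after a start, and the 10 genes have 14 such windows among 32851. The FoxO core was found in 2 of the 14 windows, for Asb16 and Asb18, and in 3.65% of all windows. A MEF2 site was found in 5 of the 14 windows, for Asb5, Asb12, Asb14, Asb16 and Asb18, and in 3.19% of all windows. The MEF2 matches of Asb14, Asb16 and Asb18 overlap a TATAAA match. CAGCTG was found in 4 of the 14 windows, for Asb2, Asb5, Asb16 and Asb18 (16.3% of all windows). CATTCC was found in 2, for Asb8 and Asb10 (14.7%). TATAAA was found in 5, for Asb5, Asb14, Asb15, Asb16 and Asb18 (13.6%). Asb10, which had the largest change of the 10 in MIGIRKO, holds none of the FoxO, E-box and MEF2 letters in this window. A match describes the letters and is no evidence of binding. Asb2 and Asb8 have 2 RefSeq starts each and Asb5 has 3, which counts per gene do not tell apart.

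The comparison of MIGIRKO with IRIGFRlox asked how the adaptors stood when both receptors were targeted in muscle. Of the 10 transcripts 8 were lower in MIGIRKO and 0 were higher, at an adjusted p under 0.05. Over all tested genes 33.7% were called in this comparison, 16.7% as lower and 17% as higher. Asb10, Asb14, Asb15, Asb2 and Asb18 fell most, by 4.29-fold to 6.79-fold. Asb5, Asb16 and Asb11 fell less, and Asb8 and Asb12 were not called. The median log2 change of the 10 was -1.67, beside 0.04 over all tested genes. In 7 of the 10 the CPM ranges of the groups did not overlap, with MIGIRKO below; this held for 14.8% of all tested genes. Whole muscle was measured, so fewer fibers and less RNA per fiber cannot be told apart, and the deletion of Igf1r could not be seen in these libraries.

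**Figure D2:**
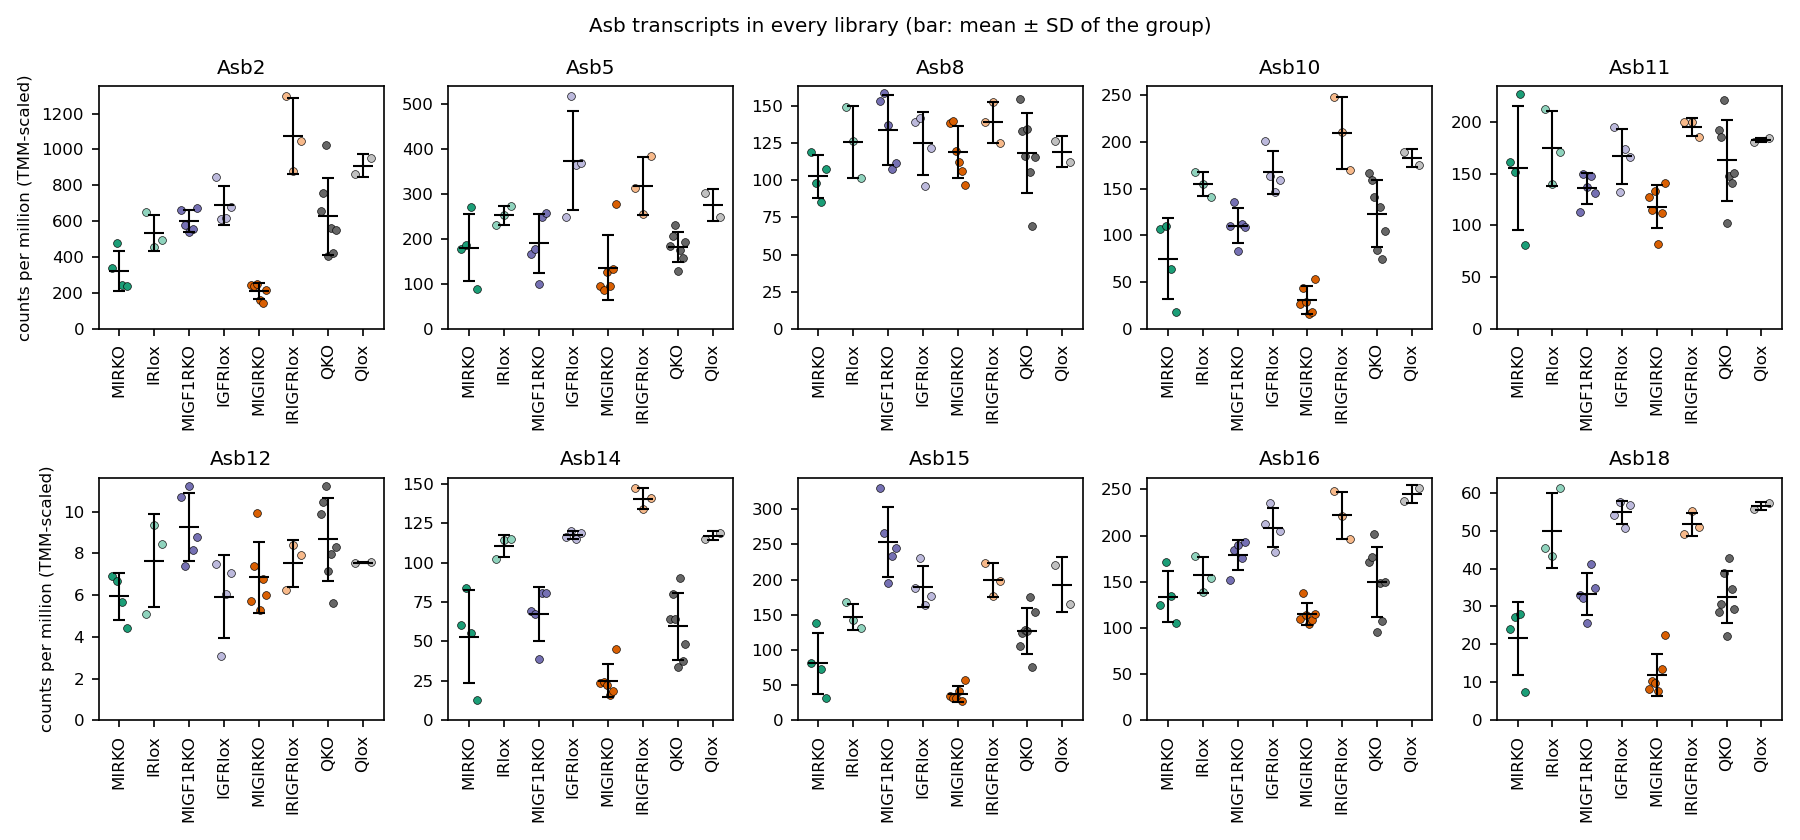
CPM of each transcript in every library, by group, on linear axes from 0; points are libraries and bars are the group mean and SD. MIGIRKO libraries lie below all IRIGFRlox libraries for 7 of the 10 transcripts. For Asb8 and Asb12 the ranges overlap, and neither was called.

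Asb10 (ENSMUSG00000038204, chr5:24532697-24540978, GRCm38) is known mainly from human studies of glaucoma. It had 26.2, 43.5, 28.7, 15.7, 17.6 and 53.3 CPM in MIGIRKO, against 248, 211 and 170 CPM in IRIGFRlox. The highest MIGIRKO library was far below the lowest control. Its log2 change was -2.76 ± 0.35 (SE), a 6.79-fold lower level (adjusted p = 1.6e-06, edgeR).

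Asb14 (ENSMUSG00000021898, chr14:26894557-26915258) had 23.4, 24.0, 22.1, 16.0, 18.8 and 45.3 CPM in MIGIRKO, against 147, 134 and 141 CPM in IRIGFRlox. The groups were well apart, and 1 library, labelled MIGIRKO 6, sat above the other 5. The log2 change was -2.49 ± 0.33 (SE; adjusted p = 2.7e-06, edgeR).

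Asb18 (ENSMUSG00000067081, chr1:89950220-90014666) had 8.33, 10.3, 9.79, 7.61, 13.5 and 22.6 CPM in MIGIRKO, against 49.2, 55.1 and 50.9 CPM in IRIGFRlox. Again the library labelled MIGIRKO 6 was the highest of its group and still below every control. The log2 change was -2.10 ± 0.27 (SE; adjusted p = 1.1e-06, edgeR).

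Asb15 (ENSMUSG00000029685, chr6:24528144-24573164), the regulator of muscle growth in culture, had 34.1, 31.0, 31.9, 42.2, 26.9 and 57.7 CPM in MIGIRKO, against 224, 176 and 198 CPM in IRIGFRlox. No library came near the other group, and the log2 change was -2.42 ± 0.26 (SE; adjusted p = 1.5e-07, edgeR). Asb2 (ENSMUSG00000021200, chr12:103321142-103356001), the adaptor for desmin, had 241, 239, 248, 162, 144 and 219 CPM in MIGIRKO, against 1296, 880 and 1049 CPM in IRIGFRlox. Its log2 change was -2.36 ± 0.22 (SE; adjusted p = 8.4e-09, edgeR), the lowest adjusted p of the 10. For Asb2, unlike Asb14 and Asb18, the library labelled MIGIRKO 6 lay inside the range of the other MIGIRKO libraries.

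The remaining called transcripts moved less. Asb16 (ENSMUSG00000034768, chr11:102268743-102279462) had 110, 137, 114, 105, 109 and 115 CPM in MIGIRKO, against 248, 221 and 197 CPM in IRIGFRlox, a log2 change of -0.95 ± 0.16 (SE; adjusted p = 4.7e-05, edgeR). The MIGIRKO values were close to each other and all below the controls.

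Asb5 (ENSMUSG00000031519, chr8:54529580-54587842) had 94.1, 86.6, 127, 94.2, 132 and 277 CPM in MIGIRKO, against 312, 256 and 385 CPM in IRIGFRlox. The value of 277 CPM, in the library labelled MIGIRKO 6, lay within the control range, so the groups overlapped. The log2 change was -1.23 ± 0.31 (SE; adjusted p = 0.0028, edgeR). Leaving out the pair labelled MIRKO 4 and MIGIRKO 6 gave -1.57. Exons of Asb5 share 75 bases with Spcs3 on the opposite strand, and the strand setting of the counting is not given, so reads there cannot be assigned with certainty.

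Asb11 (ENSMUSG00000031382, chrX:164436994-164459170) had 127, 114, 133, 81.7, 112 and 140 CPM in MIGIRKO, against 200, 200 and 185 CPM in IRIGFRlox. These ranges did not overlap, and the log2 change was -0.72 ± 0.21 (SE; adjusted p = 0.0078, edgeR). Its call is the 1 of the 8 that depends on scaling: with library totals in place of the scaled totals the change was -0.24 (adjusted p = 0.31), where the median of all tested genes moved to 0.53.

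Asb8 (ENSMUSG00000048175, chr15:98134637-98165625) averaged 119 ± 17.4 CPM in MIGIRKO and 139 ± 13.9 CPM in IRIGFRlox (SD, n = 6 and 3), with overlapping ranges and a log2 change of -0.22 ± 0.18 (SE; adjusted p = 0.34, edgeR). Asb12 (ENSMUSG00000031204, chrX:95470201-95557987) averaged 6.86 ± 1.69 CPM in MIGIRKO and 7.53 ± 1.13 CPM in IRIGFRlox, a log2 change of -0.13 ± 0.24 (SE; adjusted p = 0.70, edgeR). Asb12 rests on 37 to 62 counts per library in these groups, so small differences were not detectable. With library totals only, both values were above 0, at 0.27 for Asb8 and 0.35 for Asb12, and were still not called.

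Of the 8 calls, 7 (all but Asb11) held in each of the 19 alternative fits and left-out libraries. Without the libraries labelled MIRKO 4 and MIGIRKO 6 the changes of Asb10, Asb14, Asb15 and Asb18 were -2.99, -2.75, -2.58 and -2.38. The library numbers in the labels fall into 6 runs of consecutive or nearly consecutive numbers, and 3 of these hold both genotypes. Within those 3 runs the log2 difference of Asb10 was -3.22 to -1.67, that of Asb14 -2.63 to -1.63, that of Asb15 -2.70 to -1.77, that of Asb18 -2.50 to -1.16 and that of Asb2 -2.42 to -1.88.

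Markers of denervation and of some other cell types moved with these changes. Of 11 genes known to rise in denervated muscle, such as Chrna1 and Myog, 10 were higher in MIGIRKO and 0 were lower. Their summed level was 280 to 1088 CPM in MIGIRKO, against 143 to 159 CPM in IRIGFRlox. Of 12 fiber genes, 6 were lower, with a sum of 68452 to 109105 CPM in MIGIRKO and 179982 to 203602 CPM in IRIGFRlox. The median log2 change of the fiber genes was -1.02.

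Markers of adipocytes were higher in 6 of 6 cases (sum 393 to 1349 CPM in MIGIRKO, 164 to 179 CPM in IRIGFRlox), of immune cells in 6 of 6 tested (509 to 1444 CPM, against 150 to 222 CPM), of Schwann cells in 5 of 6 (372 to 712 CPM, against 182 to 282 CPM) and of fibroblasts in 4 of 6 (4671 to 8501 CPM, against 2621 to 5867 CPM). None of these markers was at 0 throughout either group. Endothelial markers were higher in 0 of 6 cases and lower in 1, with a median log2 change of -0.11. Satellite cell markers were higher in 2 of 5 cases, and cardiac muscle markers were called in 0 of 2 tested. The part of the cell mixture and of denervation-like expression in the Asb changes was not tested.

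Among libraries, MIGIRKO 1 to 5 and the library labelled MIRKO 4 had the highest summed denervation levels, 779 to 1088 CPM, and the 6 lowest values of each of Asb10, Asb14, Asb15 and Asb18. The library labelled MIGIRKO 6 had 280 CPM of denervation genes, and the other 3 MIRKO libraries had 246 to 263 CPM.

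**Figure D3:**
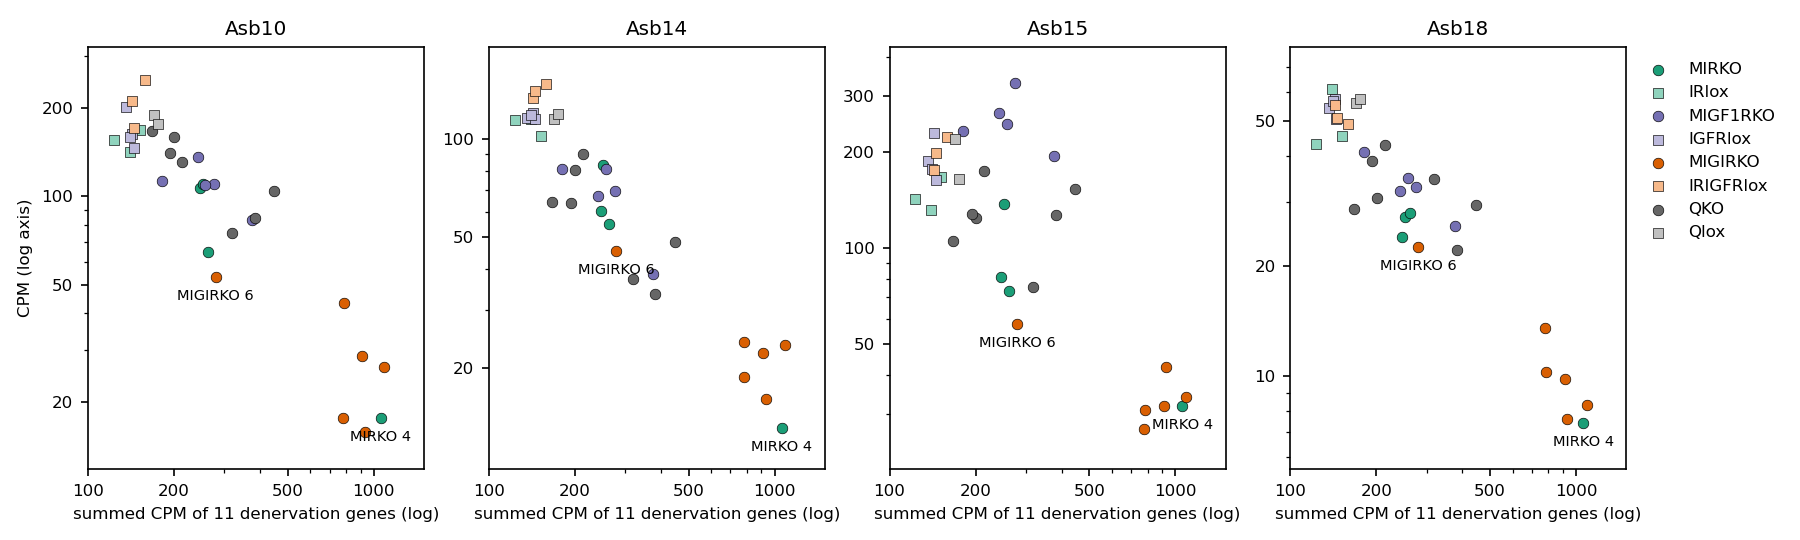
CPM of Asb10, Asb14, Asb15 and Asb18 (vertical, log axis) against the summed CPM of 11 denervation genes (horizontal, log axis) in 34 libraries; circles are knockout and squares floxed libraries. The library labelled MIRKO 4 (1058 CPM of denervation genes) lies among the MIGIRKO libraries, and the library labelled MIGIRKO 6 (280 CPM) lies nearer to the other genotypes.

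Of 16 genes of the cullin 5 ligase core, 5 were lower and 1 was higher in MIGIRKO, with a median log2 change of -0.39. Counting both directions, that share, like those of the other Asb genes and SOCS-box adaptors below, is near the 33.7% of all tested genes called. For lower calls alone, the share of all tested genes was 16.7%. Dcun1d2, which promotes cullin neddylation, had -1.10 ± 0.14 (SE; adjusted p = 1.1e-06, edgeR). The ubiquitin transfer enzyme Arih2 had -0.63 and the E2 enzyme Ube2f -0.63.

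Of the 6 other Asb genes tested, 2 were lower: Asb4 (log2 change -1.62; 9.27 CPM in MIGIRKO and 28.7 CPM in IRIGFRlox) and Asb13 (-0.39). Asb9 and Asb17 had at most 3 counts in any library. Other SOCS-box adaptors went both ways, with 3 of 18 higher and 4 lower; the lowest adjusted p values belonged to Spsb4 (2.71), Socs7 (-0.75) and Rab40b (-1.08). The other large muscle ligase family, built on cullin 3, had 6 of 9 genes lower with a median log2 change of -1.19. Its lowest adjusted p values belonged to Klhl31 (-1.38), Kbtbd13 (-2.18) and Cul3 (-0.92).

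The comparison of MIRKO with IRlox asked for the part of the insulin receptor alone. Asb18 was lower in MIRKO and was the 1 call among the 10, beside 1.25% of all tested genes called, 0.865% as lower. The other 9 were below 0 on the log2 scale and not called; with library totals only, Asb11 (0.091) and Asb16 (0.025) were above 0. The median of the 10 was -0.60, beside 0.03 for all tested genes, and 5 of the 10 had an unadjusted p under 0.05. The share of all tested genes at that unadjusted level is not given, here or below, so such counts cannot be set against it.

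Asb18 had 24.1, 27.2, 27.9 and 7.41 CPM in MIRKO, against 45.5, 43.2 and 61.3 CPM in IRlox. All 4 MIRKO libraries were below all controls, and the library labelled MIRKO 4 was far below the other 3. The log2 change was -1.22 ± 0.30 (SE; adjusted p = 0.035, edgeR). The call ended without IRlox 1, IRlox 2, IRlox 3, MIRKO 3 or MIRKO 4, where the change ranged from -1.38 to -0.92 and the adjusted p from 0.054 to 0.15. It also ended with library totals, with no filter, with library runs as a block and with the compared groups only, at adjusted p values of 0.055 to 0.19. Without the libraries labelled MIRKO 4 and MIGIRKO 6 it was -0.92 (adjusted p = 0.024).

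Asb10 had 107, 110, 64.5 and 17.6 CPM in MIRKO, against 168, 156 and 141 CPM in IRlox. Asb14 had 60.1, 83.5, 55.1 and 13.0 CPM in MIRKO, against 103, 114 and 115 CPM in IRlox. For both the groups did not overlap, as for 8.23% of all tested genes with the knockout below, but neither was called (log2 changes of -1.06 and -1.07, adjusted p = 0.16 and 0.13, edgeR). In both the library labelled MIRKO 4 was much lower than the other 3.

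Asb15 had 81.2, 138, 73.0 and 31.9 CPM in MIRKO, against 168, 142 and 131 CPM in IRlox (log2 change -0.86, adjusted p = 0.13, edgeR). Asb2 had 338, 477, 244 and 238 CPM in MIRKO, against 650, 456 and 496 CPM in IRlox (-0.72, adjusted p = 0.13). In each, 1 MIRKO library lay within the control range. The changes of Asb5, Asb8, Asb11, Asb12 and Asb16 were -0.48 to -0.17 and uncalled. When the pair labelled MIRKO 4 and MIGIRKO 6 was left out, the changes were -0.72 for Asb10, -0.74 for Asb14, -0.60 for Asb15 and -0.60 for Asb2, none called, and the mean of Asb10 in the other 3 MIRKO libraries was 93.9 CPM. Denervation genes were higher in 4 of 11 cases, with a sum of 246 to 1058 CPM in MIRKO and 123 to 152 CPM in IRlox. Fiber genes were lower in 1 of 12 cases, with a sum of 88933 to 146197 CPM in MIRKO and 160355 to 186054 CPM in IRlox, and immune genes were called in 0 of 6, with 471 to 1043 CPM in MIRKO and 265 to 323 CPM in IRlox. The part of these genes in the Asb values was not tested. The 1 library run that holds both groups gave -0.83 for Asb18, -0.92 for Asb14 and -0.54 for Asb10.

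The MIGIRKO change minus the MIRKO change tested whether targeting both receptors gave a larger fall than targeting the insulin receptor. It called 0 of 10 transcripts with edgeR, as it called 0 of all 13646 genes (0%). At an unadjusted p under 0.05 there were 6, limma-voom called 0 and DESeq2 called 3 (Asb2, Asb10 and Asb15). The differences were -1.64 ± 0.34 for Asb2, -1.71 ± 0.53 for Asb10 and -1.55 ± 0.40 for Asb15 (SE; adjusted p = 0.18, 0.25 and 0.22, edgeR). The count was 6 without the libraries labelled MIRKO 4 and MIGIRKO 6, where Asb10 differed by -2.27 and Asb14 by -2.01. It was 4 without the library labelled MIRKO 4 alone and 1 without the library labelled MIGIRKO 6 alone. The 0% above belongs to the main fit. The share of all tested genes called in the other fits is not given here, so these counts cannot be set against it.

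The comparison of MIGF1RKO with IGFRlox asked for the part of the IGF-1 receptor alone. It called 0 of the 10 transcripts with edgeR, beside 0.616% of all tested genes. At an unadjusted p under 0.05 there were 4, and DESeq2 and limma-voom called 0. The median of the 10 was -0.26 on the log2 scale, and the median of all tested genes was 0.00.

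Asb14 had 69.4, 67.2, 38.8, 80.9 and 80.9 CPM in MIGF1RKO, against 116, 120, 115 and 118 CPM in IGFRlox. Asb18 had 32.9, 32.1, 25.8, 41.2 and 34.9 CPM in MIGF1RKO, against 54.3, 57.6, 50.7 and 56.7 CPM in IGFRlox. Asb10 averaged 110 ± 18.8 CPM in MIGF1RKO and 167 ± 23.4 CPM in IGFRlox (SD, n = 5 and 4). In these 3 every MIGF1RKO library was below every control, as in 2.69% of all tested genes, while the log2 changes of -0.80, -0.71 and -0.60 had adjusted p values of 0.34, 0.25 and 0.58 (edgeR).

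Asb5 had 166, 177, 100, 249 and 257 CPM in MIGF1RKO, against 247, 517, 363 and 367 CPM in IGFRlox (log2 change -0.98, adjusted p = 0.15, edgeR). The libraries labelled MIRKO 4 and MIGIRKO 6 belong to neither group and enter only the shared estimate of the spread. Without them Asb5, Asb14 and Asb18 were called with the same changes. What share of all tested genes that fit called is not given here. Asb15, which was lower in MIGIRKO, was above its control on average here, with 330, 266, 195, 233 and 245 CPM in MIGF1RKO, against 188, 230, 164 and 177 CPM in IGFRlox. Of 5 MIGF1RKO libraries 4 were above every control, and the log2 change of 0.42 ± 0.26 was not called (SE; adjusted p = 0.63, edgeR). Asb12 and Asb8 were also above 0, at 0.64 (adjusted p = 0.28, edgeR) and 0.10, and not called. The genes of denervation were higher in 1 of 11 cases, at 181 to 375 CPM in MIGF1RKO and 136 to 145 CPM in IGFRlox, and their part was not tested.

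A contrast added after the data were seen set the MIGIRKO change against the MIGF1RKO change. It called 6 of the 10 transcripts, all as lower in MIGIRKO, beside 8.58% of all tested genes called and 4.91% as lower. Asb15 differed most, by -2.84 ± 0.37 (SE; adjusted p = 1.0e-04, edgeR), followed by Asb2 with -2.17, Asb10 with -2.16, Asb14 with -1.69, Asb18 with -1.39 and Asb16 with -0.73. The calls of Asb2, Asb10 and Asb15 held in all 27 alternatives, whereas that of Asb14 ended in 3, that of Asb18 in 2 and that of Asb16 in 17, where its adjusted p reached 0.24. Markers moved with this contrast: adipocyte genes were higher in 5 of 6 cases (median log2 difference 2.60), Schwann cell genes in 3 of 6 and denervation genes in 2 of 11, and fiber genes were lower in 4 of 12 (median -0.85). Their part was not tested.

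**Figure D4:**
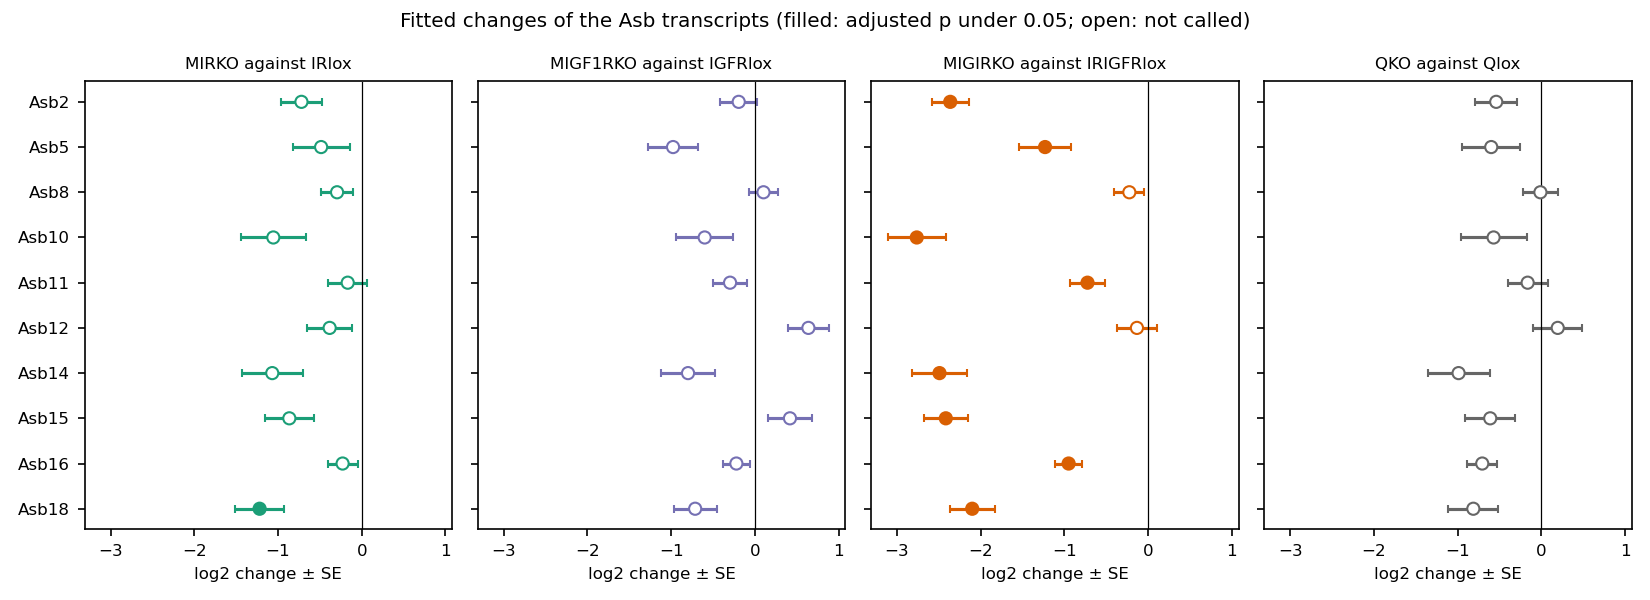
Fitted log2 changes of the 10 transcripts with their SE in the 4 knockout comparisons; filled points have an adjusted p under 0.05 and open points do not. There are 8 filled points for MIGIRKO, 1 for MIRKO (Asb18) and 0 for MIGF1RKO and QKO.

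The comparison of QKO with Qlox asked how the adaptors stood when FoxO1, FoxO3 and FoxO4 were targeted along with both receptors. It called 0 of 10 transcripts with edgeR, beside 0.506% of all tested genes. At an unadjusted p under 0.05 there were 5, DESeq2 called 1 (Asb16) and limma-voom called 0. The median of the 10 was -0.58, beside 0.04 over all tested genes. With 2 Qlox libraries the test has little precision, and a value short of the threshold does not show that levels were equal.

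In 5 of the 10 transcripts every QKO library was below both Qlox libraries, as in 5.86% of all tested genes. Asb16 had 95.6 to 202 CPM (median 149) in QKO, against 238 and 252 CPM in Qlox, a log2 change of -0.71 ± 0.18 (SE; adjusted p = 0.070, edgeR). Asb14 had 33.5 to 90.1 CPM (median 63.9) in QKO, against 115 and 119 CPM in Qlox (-0.99 ± 0.37, adjusted p = 0.30). Asb18 had 22.2 to 42.9 CPM (median 30.7) in QKO, against 55.8 and 57.3 CPM in Qlox (-0.81 ± 0.30, adjusted p = 0.29). The other 2 were Asb10 and Asb5.

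Asb10 had 75.2 to 166 CPM (median 131) in QKO, against 189 and 176 CPM in Qlox, and Asb5 had 127 to 229 CPM (median 184) in QKO, against 301 and 249 CPM in Qlox. Asb2 had 408 to 1027 CPM (median 563) in QKO, against 864 and 955 CPM in Qlox, so 1 QKO library was above both controls. Asb15 had 75.4 to 175 CPM (median 127) in QKO, against 220 and 165 CPM in Qlox. Asb8, Asb11 and Asb12 overlapped with changes of -0.01, -0.16 and 0.20. When the pair labelled MIRKO 4 and MIGIRKO 6, which belong to neither group, was left out, Asb14, Asb16 and Asb18 were called with the same changes. What share of all tested genes that fit called is not given here. Denervation genes were called in 0 of 11 cases, with a sum of 167 to 447 CPM in QKO and 170 to 175 CPM in Qlox. Their median log2 change was 1.16, beside 0.04 over all tested genes, and their part was not tested.

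Set directly against MIGIRKO, QKO had higher levels of 7 of the 10 transcripts and lower levels of 0, beside 30.2% of all tested genes called and 16.2% as higher. Asb10 was 123 ± 36.0 CPM in QKO and 30.8 ± 14.8 CPM in MIGIRKO (SD, n = 7 and 6), a log2 difference of 1.99 ± 0.30 (SE; adjusted p = 1.1e-05, edgeR). Asb15 was 127 ± 32.1 CPM in QKO and 37.3 ± 11.2 CPM in MIGIRKO (1.76), and Asb2 was 626 ± 215 CPM in QKO and 209 ± 44.5 CPM in MIGIRKO (1.58). In these 3 no QKO library was as low as any MIGIRKO library, as in 4.88% of all tested genes.

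Asb18 (1.42), Asb14 (1.24), Asb11 (0.46) and Asb16 (0.39) were also called as higher in QKO, with overlapping ranges. The calls of Asb11 and Asb16 were the least stable. That of Asb11 ended in 8 of 22 alternatives, among them library totals only, at 0.06, and no filter. That of Asb16 ended in 7 of 22, among them library totals only, at -0.026, and the compared groups only. For both the call ended without QKO 1, QKO 2, QKO 3, MIGIRKO 4 or MIGIRKO 5, and for Asb11 also without MIGIRKO 2. The other 5 calls held in all 22. Asb5 had a difference of 0.42, Asb12 of 0.34 and Asb8 of -0.01, and none was called. These genotypes come from separate colonies, so colony and genotype cannot be told apart in this direct comparison. Whole-gene Igf1r counts also separated them, at 4.01 to 11.9 CPM in QKO and 15.1 to 25.7 CPM in MIGIRKO. Denervation genes were lower in QKO in 7 of 11 cases and higher in 1, adipocyte markers were lower in 6 of 6 and fiber genes were higher in 9 of 12; their part was not tested.

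The QKO change minus the MIGIRKO change takes each line against its own colony. It called 3 of the 10 transcripts as higher, beside 5.76% of all tested genes called and 3.61% as higher. These were Asb10 (2.19 ± 0.57, adjusted p = 0.022), Asb2 (1.82 ± 0.36, adjusted p = 0.0034) and Asb15 (1.81 ± 0.43, adjusted p = 0.012; SE, edgeR). Asb14 (1.50, adjusted p = 0.088) and Asb18 (1.29, adjusted p = 0.065) were short of the threshold, and both were called by DESeq2. The calls rest on the Qlox pair: 0 of 10 were called without Qlox 1 and 1 without Qlox 2. The call of Asb10 also ended without IRIGFRlox 1, with no filter and with library runs as a block, at adjusted p values of 0.052 to 0.073. With all 12 floxed libraries pooled, the control cancels out of this difference. That fit called 7, but it only compares QKO with MIGIRKO directly and takes no line against its own colony. The count was 5 without the libraries labelled MIRKO 4 and MIGIRKO 6 or without the library labelled MIGIRKO 6 alone. What share of all tested genes these other fits called is not given here. In the same contrast fiber genes were higher in 6 of 12 cases (median 1.08), and adipocyte and Schwann cell genes were lower in 5 of 6 each (medians -3.22 and -2.29); denervation genes were called in 0 of 11. Their part was not tested.

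The transcripts also varied together across the 34 libraries, in a description that mixes group differences with variation between mice and in which libraries share genotype, colony and composition. Asb10, Asb14 and Asb18 had Pearson correlations of log2 CPM of 0.93 to 0.95 with each other. After group means were removed, Asb14 and Asb18 correlated at 0.84 and Asb10 and Asb14 at 0.88. Asb8 and Asb12 stood apart, with correlations of at most 0.36 to any other of the 10. Asb12 and Asb5 had the lowest, -0.11.

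**Figure D5:**
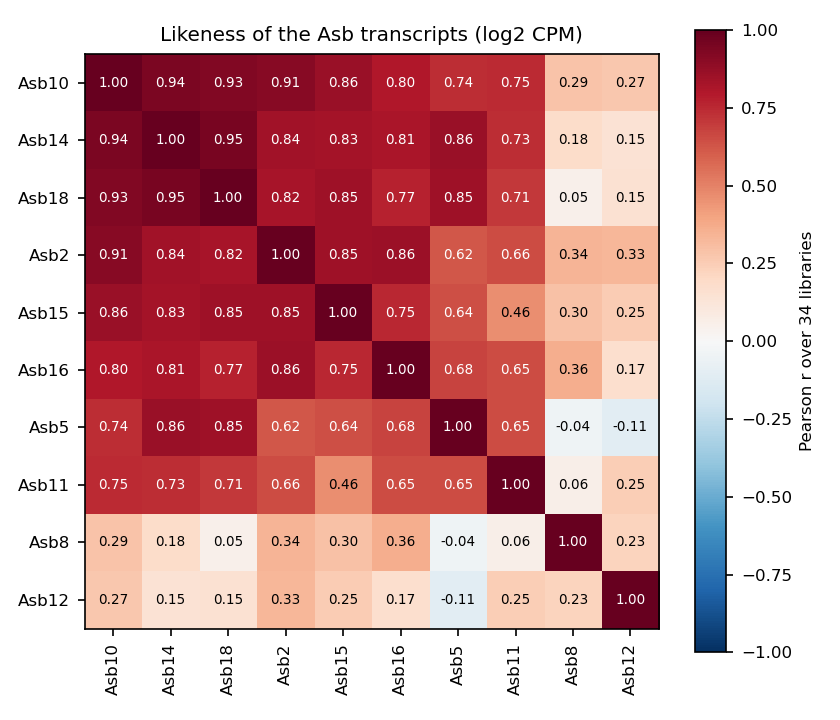
Pearson correlations of log2 CPM between the 10 transcripts over 34 libraries, from -1 (blue) to 1 (red). Asb10, Asb14 and Asb18 form the closest set (0.93 to 0.95), and Asb8 and Asb12 are close to none, with 0.36 at most.

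Of all other tested genes, the closest to Asb10 was Magix (0.973), the closest to Asb14 was Osbpl6 (0.964) and the closest to Asb18 was Xpr1 (0.959). Asb2 was closest to Vdac1 (0.952), Asb15 to Phkb (0.938), Asb16 to Paip2b (0.913), Asb5 to Ttll7 (0.912), Asb11 to Rps6ka2 (0.825), Asb8 to Vegfb (0.820) and Asb12 to Ndufa1 (0.724). Vdac1 is a channel of the outer mitochondrial membrane and Phkb a subunit of phosphorylase kinase. Each is the highest of 13636 correlations, so its size is high by choice.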

How the data were processed

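The authors deposited raw counts per Ensembl gene for 34 libraries of stranded total RNA; per the submitters' processing notes, reads were aligned to GRCm38.p4 with STAR and counted with featureCounts. Tool versions, annotation release and strand setting are not given in the sources used here. Of 46071 identifiers, 45229 matched a symbol in GENCODE M21, which also gave positions and exon lengths; upstream sequences are RefSeq's (GRCm38.p6). Total counts of 1499025 to 7581198 set the counting precision.

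The tools were R 4.3.3, edgeR 4.0.16, limma 3.58.1, DESeq2 1.42.0, Python 3.11.15, numpy 2.4.6, pandas 2.3.3 and, for figures, matplotlib 3.10.9. The filter filterByExpr, given the 8 groups, kept 13646 genes. Totals were scaled by TMM factors, which averaged 1.23 in MIGIRKO, 1.14 in MIRKO and 0.876 to 0.965 elsewhere. A model with a mean for each group was fitted with edgeR (quasi-likelihood, robust). P-values were Benjamini-Hochberg adjusted over all tested genes, and called means under 0.05. Counts at an unadjusted p under 0.05 are printed without the share of all tested genes at that level. Those in alternative fits are likewise printed without the share of all tested genes called in the same fit. The SE of a change is its size divided by the root of F. The procedure was tested on simulated data. CPM per kilobase uses the length of all annotated exons. Correlations use log2 CPM with a prior count of 2.

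Groups came from the labels. Replicate numbers count libraries and pair nothing. In the main fit, p-values rest on the spread between mice within groups, in an estimate that all 8 groups share. They do not measure the spread between lines. The genes and lists were chosen with earlier results of these data known, and so were the libraries left out as a pair. All 10 genes are named, with the closest gene to each by correlation and, in some comparisons, up to 3 called genes of some other lists. Called genes of the marker lists are counted and mostly not named. Some of the named genes were chosen after their values were seen. Alternatives were DESeq2, limma-voom, DESeq2 size factors, library totals, no filter, CPM above 1 in 3 libraries, and a block for library runs. Others were the 12 floxed libraries pooled as control, a fit of the compared groups alone, and leaving out libraries. In a difference between changes the pooled control cancels, which leaves a direct comparison of the knockout groups.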

Additional observations from a re-analysis of the deposited data

Results flagged for a closer look

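Within groups of 4 to 10 libraries, 50 sets of values were examined for a library far from its nearest neighbour; chance flags about 5% of such sets. There were 3. Asb5 was 277 CPM in the library labelled MIGIRKO 6, and the nearest MIGIRKO library had 132 CPM. Asb14 was 45.3 CPM in the same library, and the nearest had 24.0 CPM. Asb16 was 137 CPM in MIGIRKO 2, and the nearest had 115 CPM.

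The change in QKO and the change in MIGIRKO differed, by a test of the difference, for Asb2 (1.82 on the log2 scale), Asb10 (2.19) and Asb15 (1.81). The change in MIGIRKO and the change in MIGF1RKO differed for Asb2 (-2.17), Asb10 (-2.16), Asb14 (-1.69), Asb15 (-2.84), Asb16 (-0.73) and Asb18 (-1.39), in the contrast added after the data were seen; the call of Asb16 ended in 17 of 27 alternatives, that of Asb14 in 3 and that of Asb18 in 2.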

How the results depend on the processing

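No paired analysis was possible because no knockout mouse is tied to a littermate in the labels; the replicate numbers only count libraries. Counts of called transcripts for MIGIRKO against IRIGFRlox were 7 to 8 in all alternatives, and for QKO against MIGIRKO 5 to 8. For MIRKO against IRlox the count of 1 became 0 with library totals, no filter, library runs as a block or a fit of the compared groups alone, 7 with the 12 floxed libraries pooled, and 0 to 4 with a library left out (4 without MIRKO 2). For MIGF1RKO against IGFRlox the count of 0 became 2 with the compared groups alone and 3 without the pair labelled MIRKO 4 and MIGIRKO 6. For QKO against Qlox the count of 0 became 1 with DESeq2 or library totals, 4 with the floxed libraries pooled, 3 without that pair, and 0 to 1 with a library left out. For the QKO change minus the MIGIRKO change the count of 3 became 2 with no filter or library runs as a block. It became 5 with DESeq2 or without the pair, and 0 to 5 with a library left out. It was 7 with the floxed libraries pooled, where the control cancels and QKO is compared with MIGIRKO directly. For the MIGIRKO change minus the MIRKO change the count of 0 became 3 with DESeq2, 6 without the pair, and 0 to 4 with a library left out. For the MIGIRKO change minus the MIGF1RKO change the count of 6 became 5 with library runs as a block, 4 with library totals, 3 with no filter, and 4 to 6 with a library left out. For the floxed groups the count of 0 became 1 with the compared groups alone. The share of all tested genes called in each of these fits is not given, so the counts cannot be set against it. The cause of these differences was not tested.

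Library totals moved the median of all tested genes to 0.53 in MIGIRKO and 0.30 in MIRKO. With them the sign turned for Asb11 (0.091) and Asb16 (0.025) in MIRKO, Asb8 (0.27) and Asb12 (0.35) in MIGIRKO, Asb8 (0.029) in QKO, Asb12 (-0.064) and Asb16 (-0.026) in QKO against MIGIRKO, Asb8 (-0.24), Asb12 (-0.12) and Asb16 (-0.21) in the QKO minus MIGIRKO difference, and Asb5 (0.16) and Asb8 (0.080) in the MIGIRKO minus MIGF1RKO difference. Of these 12 only Asb16 in QKO against MIGIRKO had been called. With no filter Asb8 was 0.0056 in QKO against MIGIRKO. With library runs as a block Asb12 was -0.071 in QKO, and Asb8 was -0.18 in the QKO minus MIGIRKO and -0.051 in the MIGIRKO minus MIRKO difference. With the 12 floxed libraries pooled Asb8 was -0.0078 in the QKO minus MIGIRKO difference, which that fit reduces to QKO against MIGIRKO. Without the pair Asb11 was 0.048 in MIRKO. Leaving out single libraries gave Asb11 -0.41 to 0.047 in MIRKO, and Asb8 -0.097 to 0.090 in QKO against Qlox, -0.085 to 0.092 in QKO against MIGIRKO, -0.079 to 0.21 in the MIGIRKO minus MIRKO difference and -0.0053 to 0.17 in MIGF1RKO. Depth limits Asb12 most, with 11 to 62 counts per library.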

Other observations

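Of the 9 genes of the cullin 3 list, 2 were lower in QKO than in Qlox, beside 0.506% of all tested genes called. In the same comparison 0 of the 10 Asb transcripts were called, and the difference between the lists was not tested. Klhl33 was 40.9 CPM in QKO and 120 CPM in Qlox (log2 change -1.57 ± 0.27, SE; adjusted p = 0.0017, edgeR), and Klhl38 was 10.5 CPM in QKO and 28.0 CPM in Qlox (-1.47 ± 0.35, adjusted p = 0.042). Both were also lower in MIGIRKO than in IRIGFRlox, by -1.26 and -1.19 on the log2 scale.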
